A study of Mus musculus with 9 samples.

Results

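The genes described here encode the heterotrimeric G proteins and the RGS (regulator of G protein signalling) proteins, measured in primary brown adipose cultures of mice. Members were taken by name from the annotation of the array's probe sets: every symbol that is Rgs, Gnb, Gng, Gna or Gnai followed by a digit, together with Gnao1, Gnaq, Gnas, Gnal, Gnaz, Gnat1 and Gnat2. Probe sets with a single symbol were used, the brightest for each gene, which gave 52 members among 19858 genes. They comprised 14 alpha, 5 beta and 10 gamma subunits, 20 RGS proteins and 3 genes that carry such a name without encoding a subunit or an RGS domain (Gnb1l, Rgs7bp and Rgs9bp). The probe set of Gnas, the alpha subunit of Gs, was shared with the antisense gene Gnasas1 and therefore has no value here.

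The cultures came from interscapular brown fat of male C57BL/6 mice aged 5 weeks, plated as a fraction enriched in precursor cells, cultured with increasing insulin and harvested near day 9. There were 3 groups of 3 cultures: a DMSO vehicle control (arrays 1 to 3), the compound HA155 (2.5 µM, arrays 4 to 6) and LPA, here 1-oleoyl lysophosphatidic acid (5 µM, arrays 7 to 9). HA155 inhibits autotaxin, the enzyme that produces LPA. The series was designed to find genes regulated by autotaxin and by LPA. The labels place the compounds at 9 days in vitro and the series design during differentiation, which leaves the duration of exposure unclear. These are mixed primary cultures, and no group was enriched for a single cell type.

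A heterotrimeric G protein consists of an alpha subunit, which binds GTP when a receptor is activated, and a paired beta and gamma subunit. Gs and Gi alpha subunits raise and lower cyclic AMP through adenylyl cyclase, and Gq activates phospholipase C beta, while G12 and G13 act on the cytoskeleton. RGS proteins speed up GTP hydrolysis by the alpha subunit and so shorten the signal. LPA acts on receptors that couple to Gi, Gq and G12/13, whereas the sympathetic stimulus of brown fat acts mainly through beta-adrenergic receptors and Gs.

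Levels are log2 of the RMA intensity, and a difference is a difference of log2 means, tested with limma on all 9 arrays and adjusted over 13335 genes. A gene passed at an adjusted p below 0.05. Genes with a mean below 5.59 (intensity 48.2, the 40th percentile of all probe sets) were not tested, which left 36 of the 52 members. Levels of different genes rest on different probes and are not ranked against each other. The LPA arrays lay apart on the first principal component (66.7% of the variance), LPA array 8 the furthest. Of 14 markers of brown adipocytes 4 had a mean below the filter (Ucp1, Cidea, Dio2 and Elovl3). Cidea lay above the filter level in the HA155 arrays alone (6.53, 6.15 and 6.49). All 17 measured markers of fat cells in general were above it. The median SD of the 36 tested members was 0.064 in control, 0.053 with HA155 and 0.097 with LPA.

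With LPA, 5 of the 36 tested members rose (Rgs16, Gng8, Gng10, Gng11 and Gnai2) and 4 fell (Rgs2, Gnai1, Gnb5 and Gng2). Across all genes tested 23.0% passed in this comparison (12.2% rose and 10.8% fell), so 9 of 36 (25.0%) is a share near the background. The median difference of the 36 was -0.0052, against 0.0052 for all genes tested, and the median size was 0.12 in both. With HA155 only Rgs2 passed among the 36 (2.8%, background 1.03%), and it rose, as did 0.607% of all genes. Between LPA and HA155, 6 members were higher with LPA and 4 lower (27.8%, background 26.1%, of which 13.7% higher and 12.4% lower). The 10 called there were the same 9 and Rgs12. Both LPA comparisons use the same LPA arrays and both comparisons with control the same control arrays, so these counts are not independent.

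**Figure D1:**
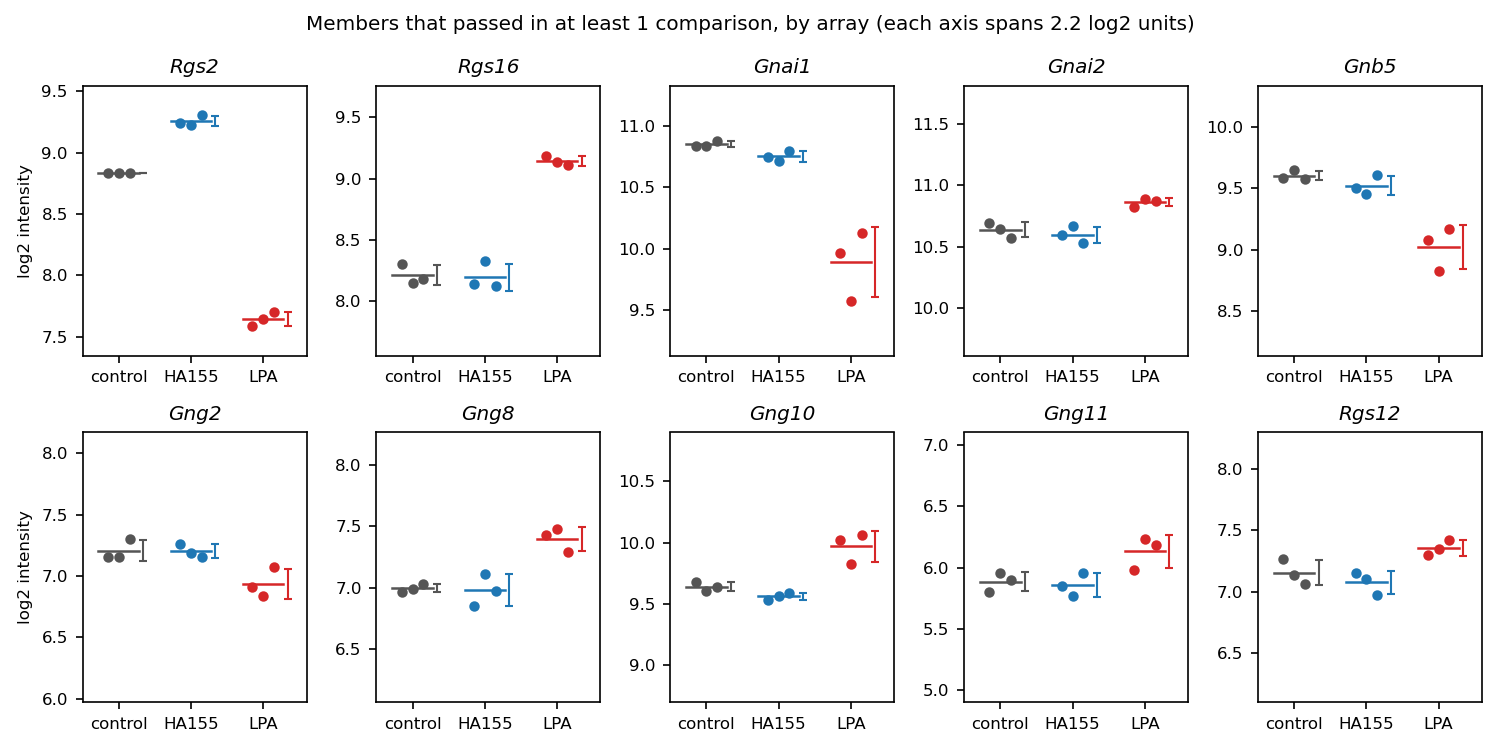
Log2 intensity of the 10 members that passed in at least 1 comparison, by group on the horizontal axis; points are single arrays (n = 3 per group), horizontal lines are group means and bars are SD. Rgs2 lies lowest with LPA and highest with HA155, whereas in the other panels the HA155 arrays lie close to the control arrays.

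The promoters of the members that moved most are shown first, since Rgs2 and Rgs16 belong to the same RGS class and moved in opposite directions, and Gnai1 and Gnb5 fell together. They are RefSeq sequences of build GRCm38.p6, from 250 bases before to 50 bases after the annotated start, 5′ to 3′ on the gene's strand. They lie at chr1:144004100-144004399 (minus strand) for Rgs2, chr1:153740103-153740402 (plus strand) for Rgs16, chr5:18360364-18360663 (minus strand) for Gnai1 and chr9:75306038-75306337 (plus strand) for Gnb5. Capitals mark matches on either strand to a GC box (GGGCGG), the half-site of a cyclic AMP response element (TGACG) or a TATA box (TATAAA).
Rgs2: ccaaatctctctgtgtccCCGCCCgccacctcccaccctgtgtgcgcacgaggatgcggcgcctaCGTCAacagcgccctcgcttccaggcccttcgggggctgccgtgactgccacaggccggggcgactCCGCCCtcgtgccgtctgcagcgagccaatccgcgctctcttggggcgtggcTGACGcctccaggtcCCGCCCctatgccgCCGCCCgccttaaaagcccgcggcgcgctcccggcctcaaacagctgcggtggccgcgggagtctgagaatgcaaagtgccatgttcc
Rgs16: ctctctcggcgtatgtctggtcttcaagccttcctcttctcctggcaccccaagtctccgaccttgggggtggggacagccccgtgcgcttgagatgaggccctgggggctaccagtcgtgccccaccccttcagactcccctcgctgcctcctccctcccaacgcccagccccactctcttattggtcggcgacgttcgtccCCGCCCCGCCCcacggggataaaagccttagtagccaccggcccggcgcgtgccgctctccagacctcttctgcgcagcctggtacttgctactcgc
Gnai1: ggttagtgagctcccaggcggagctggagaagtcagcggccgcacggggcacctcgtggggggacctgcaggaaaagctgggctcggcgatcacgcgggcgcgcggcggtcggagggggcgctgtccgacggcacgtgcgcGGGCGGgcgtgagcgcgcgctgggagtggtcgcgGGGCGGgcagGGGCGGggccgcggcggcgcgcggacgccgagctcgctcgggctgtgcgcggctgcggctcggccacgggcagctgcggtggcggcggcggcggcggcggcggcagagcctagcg
Gnb5: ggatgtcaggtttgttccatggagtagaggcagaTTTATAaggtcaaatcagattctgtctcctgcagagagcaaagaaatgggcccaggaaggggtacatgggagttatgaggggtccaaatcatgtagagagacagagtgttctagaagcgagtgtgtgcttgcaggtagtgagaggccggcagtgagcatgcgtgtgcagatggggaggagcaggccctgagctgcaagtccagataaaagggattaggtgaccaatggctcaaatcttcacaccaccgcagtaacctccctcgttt
The Rgs2 window held 4 GC boxes and 2 matches to TGACG, at -185 and -67 from the start. The Rgs16 window held 2 GC boxes, which overlap, and the Gnai1 window 3. The Gnb5 window held none and had a match to TATAAA at -216. Among all 32851 RefSeq promoter windows of this length, 35.7% held a GC box, 20.8% TGACG and 13.6% TATAAA. The 4 windows had no match to the full cyclic AMP response element TGACGTCA (1.79% of all windows), the AP-1 motif TGANTCA (7.81%), the TEAD motif GGAATG (14.7%), the direct repeat bound by PPAR (0.0396%) or the CArG box of serum response factor (1.63%). These matches describe letters only. GC content was 80.0% for Gnai1, 70.0% for Rgs2, 66.0% for Rgs16 and 51.0% for Gnb5, and the median over all windows was 52.7%. Of the 10 called members 8 had a promoter entry. Among those not shown, Gng2 had an AP-1 match at -167 and Rgs12 at -22 from its annotated start 2. Gng10 had a TEAD match at -172.

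Rgs2, an RGS protein of the R4 class that acts mainly on Gq and also restrains adenylyl cyclase, was the member with the largest difference in every comparison. It measured 8.84 in each of the 3 control arrays, 9.24, 9.23 and 9.30 with HA155, and 7.58, 7.65 and 7.70 with LPA. The groups did not overlap, and the order was LPA, control, HA155. With LPA Rgs2 fell by 1.19 on the log2 scale (SE 0.06, 95% interval -1.32 to -1.07, limma adjusted p = 2.38e-07), which is 2.29-fold. With HA155 it rose by 0.42 (SE 0.06, 95% interval 0.30 to 0.54, limma adjusted p = 0.00541), or 1.34-fold. The 3 control arrays held identical values of Rgs2, so the spread behind these tests is understated. With any single array left out or under the other settings tried, the adjusted p for HA155 stayed between 0.000614 and 0.0388. LPA was lower than HA155 by 3.06-fold (limma adjusted p = 2.17e-08). In such mixed cultures fewer cells of a type and less RNA per cell cannot be told apart. The 17 fat cell markers all fell with LPA, with a median of -1.29, and 4 of them rose with HA155. Their summed level ran from 15.82 to 15.87 in control, 15.88 to 15.95 with HA155 and 14.86 to 14.90 with LPA on the log2 scale. Of 10 tested brown adipocyte markers 4 fell and 1 rose with LPA (50.0%, against 23.0% of all genes). With HA155 3 of them rose (30.0%, against 1.03% of all genes passing in either direction). Their summed level over all 14 ran from 11.20 to 11.27 in control, 11.69 to 11.76 with HA155 and 10.69 to 10.85 with LPA. That is the order of groups seen for Rgs2. Each summed level adds linear intensities, so bright genes that change weigh most. Of the 10 tested brown markers Cox7a1 and Cox8b differed most. Their means in control, HA155 and LPA were 8.78, 9.91 and 6.94 for Cox7a1, and 8.27, 9.28 and 6.42 for Cox8b. Zic1, by contrast, rose with LPA (0.43). The part of fat cells in the fall and rise of Rgs2 was not tested.

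Rgs16, an R4 protein that acts on Gi and Gq alpha subunits, moved the other way with LPA. It measured 8.30, 8.15 and 8.18 in control, 8.14, 8.32 and 8.12 with HA155, and 9.19, 9.13 and 9.11 with LPA. Every LPA array lay above every other array, while control and HA155 overlapped. The rise with LPA was 0.93 (SE 0.07, 95% interval 0.78 to 1.08, limma adjusted p = 5.64e-06), or 1.91-fold. The difference of HA155 from control was -0.02 (95% interval -0.17 to 0.14, limma adjusted p = 0.987). Markers of pericytes and smooth muscle were measured beside it: 5 of 12 rose with LPA and 2 fell (58.3%, against 23.0% of all genes). Their summed level ran from 12.12 to 12.23 in control, 12.19 to 12.4 with HA155 and 12.58 to 12.62 with LPA. Higd1b, one of the pericyte markers, was below the filter, as was Rgs5, an R4 member known as a marker of pericytes. Of 11 tested skeletal muscle markers 6 rose with LPA (54.5%). The summed level of that list ran from 10.51 to 10.60 in control, 10.51 to 10.64 with HA155 and 10.93 to 11.17 with LPA. Of 9 markers of preadipocytes and fibroblasts 4 rose and 1 fell with LPA (55.6%). They summed to 14.97 to 15.04 in control, 14.84 to 14.93 with HA155 and 15.26 to 15.32 with LPA. None of 7 macrophage markers or 5 markers of Schwann cells and neurons passed with LPA (limma; 0 in each list had an unadjusted p below 0.05). The part of these cells in the rise of Rgs16 was not tested.

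The other R4 genes gave no call. Rgs3, a longer R4 protein with several isoforms, measured -0.01 with LPA (95% interval -0.16 to 0.15), and its dimmer probe set, at a mean of 6.16, was not used. Rgs8, known from the brain, measured -0.11 (limma adjusted p = 0.441), with 1 of its 9 arrays below the filter level. Rgs1, Rgs13, Rgs18 and Rgs21 lay at 3.48 or less on every array, and Rgs4 and Rgs5 between 4.53 and 5.51. Rgs1, Rgs13 and Rgs18 are known from lymphocytes, mast cells and platelets, and 7 of the 11 measured markers of those cells were below the filter as well.

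In most adjacent RGS pairs at least 1 gene was below the filter, so their changes could not be compared. By RefSeq gene order, 11 members lie on chromosome 1, and Rgs2, Rgs13, Rgs1, Rgs21 and Rgs18 follow each other there with no other protein-coding gene between them. Of these 5 neighbours only Rgs2 was above the filter. Rgs8 and Rgs16 are also adjacent; Rgs16 rose with LPA, and Rgs8 was near the filter level and did not pass. Rgs5 and Rgs4, adjacent as well, were both below the filter.

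**Figure D2:**
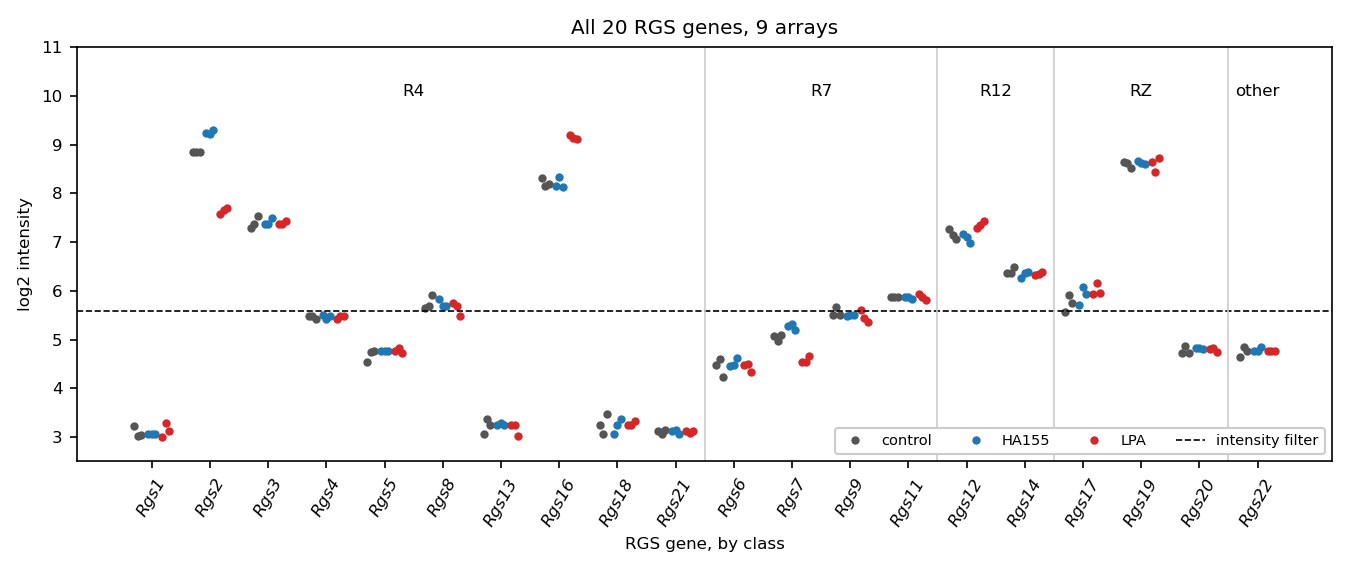
Log2 intensity of the 20 RGS genes (vertical axis) in the 9 arrays, grouped by RGS class along the horizontal axis; points are single arrays and the dashed line is the intensity filter at 5.59. Rgs2 and Rgs16 are the R4 genes whose LPA arrays stand apart from the others, and 11 of the 20 genes have a mean below the line.

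Of the 9 tested RGS genes 2 passed for LPA against control (22.2%, against 23.0% of all genes). For LPA against HA155 3 passed (33.3%, against 26.1%). Outside the R4 class the only call was that of Rgs12. Rgs12, a large protein of the R12 class that also binds inactive Gi, measured 7.26, 7.14 and 7.06 in control, 7.16, 7.10 and 6.97 with HA155, and 7.30, 7.35 and 7.43 with LPA. Every LPA array was above every other array by a small margin. LPA against HA155 passed at 0.28 (SE 0.07, limma adjusted p = 0.0149), a call lost without HA155 array 6 (adjusted p = 0.075); LPA against control, at 0.20, did not (limma adjusted p = 0.0709). Rgs17, an RZ protein that acts on Gz and Gi, measured 0.27 with LPA (95% interval 0.02 to 0.52, limma adjusted p = 0.114). Its arrays lay between 5.57 and 6.16, close to the filter level. Rgs14 (-0.07), Rgs19 (0.0029) and Rgs11 (-0.0032) had 95% intervals with LPA that included 0. Rgs20 and Rgs22 were below the filter on every array.

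The R7 class, whose members (Rgs6, Rgs7, Rgs9 and Rgs11) are obligate partners of Gnb5, was dim. Only Rgs11 passed the filter. Rgs7 measured 5.07, 4.97 and 5.08 in control, 5.27, 5.33 and 5.20 with HA155, and 4.55, 4.53 and 4.66 with LPA. All of these lie below the filter level, and the order of the groups is that of Rgs2. In a fit without the filter LPA minus control was -0.46 (SE 0.06, limma adjusted p = 0.000709) and LPA minus HA155 -0.69 (limma adjusted p = 3.72e-05), while HA155 against control, at 0.22, did not pass (limma adjusted p = 0.340). At this intensity the sizes are uncertain. Rgs6 and Rgs9 did not pass in that fit (limma adjusted p = 0.531 or more with LPA).

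Among the 11 tested alpha subunits, 2 of the Gi class passed with LPA, in opposite directions (18.2%, against 23.0% of all genes). Gnai1 measured 10.84, 10.84 and 10.88 in control, 10.75, 10.71 and 10.80 with HA155, and 9.97, 9.57 and 10.13 with LPA. Each LPA array was below every other array, LPA array 8 the most. It fell by 0.96 (SE 0.11, 95% interval -1.21 to -0.71, limma adjusted p = 0.000110), or 1.95-fold, and by 0.80 without LPA array 8 (adjusted p = 2.19e-05). The fat cell markers fell in the same arrays, as given for Rgs2, and their part here was not tested. The 3 HA155 arrays of Gnai1 also lay under the 3 control arrays, but by -0.10 (95% interval -0.35 to 0.15, limma adjusted p = 0.939). Non-overlapping groups were found for 16.8% of all genes in that comparison and for 4 of the 36 members.

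Gnai2, a Gi alpha subunit made in most tissues, rose with LPA. It measured 10.70, 10.64 and 10.58 in control, 10.59, 10.67 and 10.53 with HA155, and 10.82, 10.89 and 10.88 with LPA. The LPA arrays lay above all others. The rise of 0.22 (SE 0.06, limma adjusted p = 0.0196), or 1.17-fold, was lost without control array 2 or 3 (adjusted p up to 0.0741), while LPA against HA155, at 0.26, passed in every alternative fit. Gnai3, the remaining Gi subunit of most tissues, measured 0.05 with LPA (95% interval -0.20 to 0.31). Without LPA array 8 it measured 0.22 and passed (limma adjusted p = 0.0172), so that its call depends on that array.

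The remaining alpha subunits gave no call in any comparison. Gnaq and Gna11, the widely made subunits of the Gq class, measured 0.11 and -0.12 with LPA (limma adjusted p = 0.173 and 0.158), with 95% intervals of -0.0078 to 0.23 and -0.25 to 0.0039. For Gnaq the LPA arrays lay above the control arrays and for Gna11 below them, as happened for 33.1% of all genes in either direction. Gna12 and Gna13, the 2 subunits of the G12 class, measured -0.18 and 0.03 (limma adjusted p = 0.198 and 0.776). Gnao1, the Go subunit abundant in neurons, measured 0.14 (limma adjusted p = 0.525). Gnaz, Gnat1 and Gnat2, of Gz and the retinal transducins, lay between 5.35 and 6.01 on all arrays, close to the filter level, and did not pass. Gna14 and Gna15 of the Gq class and Gnal, the olfactory relative of Gs, were below the filter on all 9 arrays.

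Gnb5, an atypical beta subunit that pairs with R7 RGS proteins in place of a gamma subunit, was the only one of 5 beta subunits to pass. With LPA, 1 of 5 is a share near the background of 23.0% of all genes. Gnb5 measured 9.59, 9.65 and 9.58 in control, 9.50, 9.46 and 9.61 with HA155, and 9.08, 8.82 and 9.17 with LPA. Every LPA array was below every other array, and LPA array 8 was again the lowest. Gnb5 fell by 0.58 on the log2 scale (SE 0.09, 95% interval -0.77 to -0.39, limma adjusted p = 0.000544), or 1.49-fold, and measured -0.48 without LPA array 8. All 17 fat cell markers fell in the same LPA arrays (median -1.29), and their part in the fall of Gnb5 was not tested. HA155 against control measured -0.08 (limma adjusted p = 0.937). The conventional beta subunits Gnb1, Gnb2, Gnb3 and Gnb4 measured -0.08, -0.10, -0.07 and 0.15 with LPA, and their 95% intervals included 0.

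Of the 9 tested gamma subunits, which anchor the beta and gamma pair to the membrane, 3 rose and 1 fell with LPA. The share was 44.4%, against 23.0% of all genes, and the calls of Gng2 and Gng11 were less firm, as given below. Gng8, known from olfactory neurons, measured 6.96, 6.99 and 7.03 in control, 6.85, 7.11 and 6.97 with HA155, and 7.43, 7.48 and 7.29 with LPA. Gng10 measured 9.68, 9.60 and 9.64 in control, 9.53, 9.56 and 9.59 with HA155, and 10.02, 9.83 and 10.06 with LPA. In both genes the LPA arrays lay above all others. Gng8 rose by 0.40 (SE 0.08, limma adjusted p = 0.00289) and Gng10 by 0.33 (SE 0.07, limma adjusted p = 0.00468), and both kept the call in all 18 alternative fits. The Gng10 arrays of HA155 lay below those of control, by -0.08 (95% interval -0.23 to 0.07, limma adjusted p = 0.909). The marker lists that rose in part in the LPA arrays are given for Rgs16, and their part in the rises of Gng8, Gng10 and Gnai2 was not tested.

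Gng2 and Gng11 passed less firmly. Gng2, a widely used partner of beta subunits, measured 7.16, 7.16 and 7.30 in control, 7.26, 7.19 and 7.16 with HA155, and 6.91, 6.84 and 7.07 with LPA. It fell by 0.27 (SE 0.07, limma adjusted p = 0.0228), and the call was lost in 4 of 18 alternative fits, those without LPA array 7, LPA array 8 or control array 3 and that of the 2 groups alone (adjusted p up to 0.0925). The part of the falling fat cell markers in it was not tested either. Gng11, known from endothelial cells among others, measured 5.80, 5.95 and 5.90 in control, 5.85, 5.77 and 5.95 with HA155, and 5.98, 6.24 and 6.18 with LPA, all close to the filter level. Its rise of 0.25 (limma adjusted p = 0.0480) was lost in 15 of 17 alternative fits (adjusted p up to 0.216). Of 7 tested endothelial markers 1 rose and 1 fell with LPA (28.6%, against 23.0% of all genes). The summed level of that list ran from 9.67 to 9.78 in control and 9.69 to 9.72 with LPA. Gng12, a gamma subunit of many cell types, measured 0.18 (limma adjusted p = 0.0557). Gng4, Gng5, Gng7 and Gng13 measured between -0.03 and 0.04, with 95% intervals that included 0, and the neuronal Gng3 was below the filter.

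**Figure D3:**
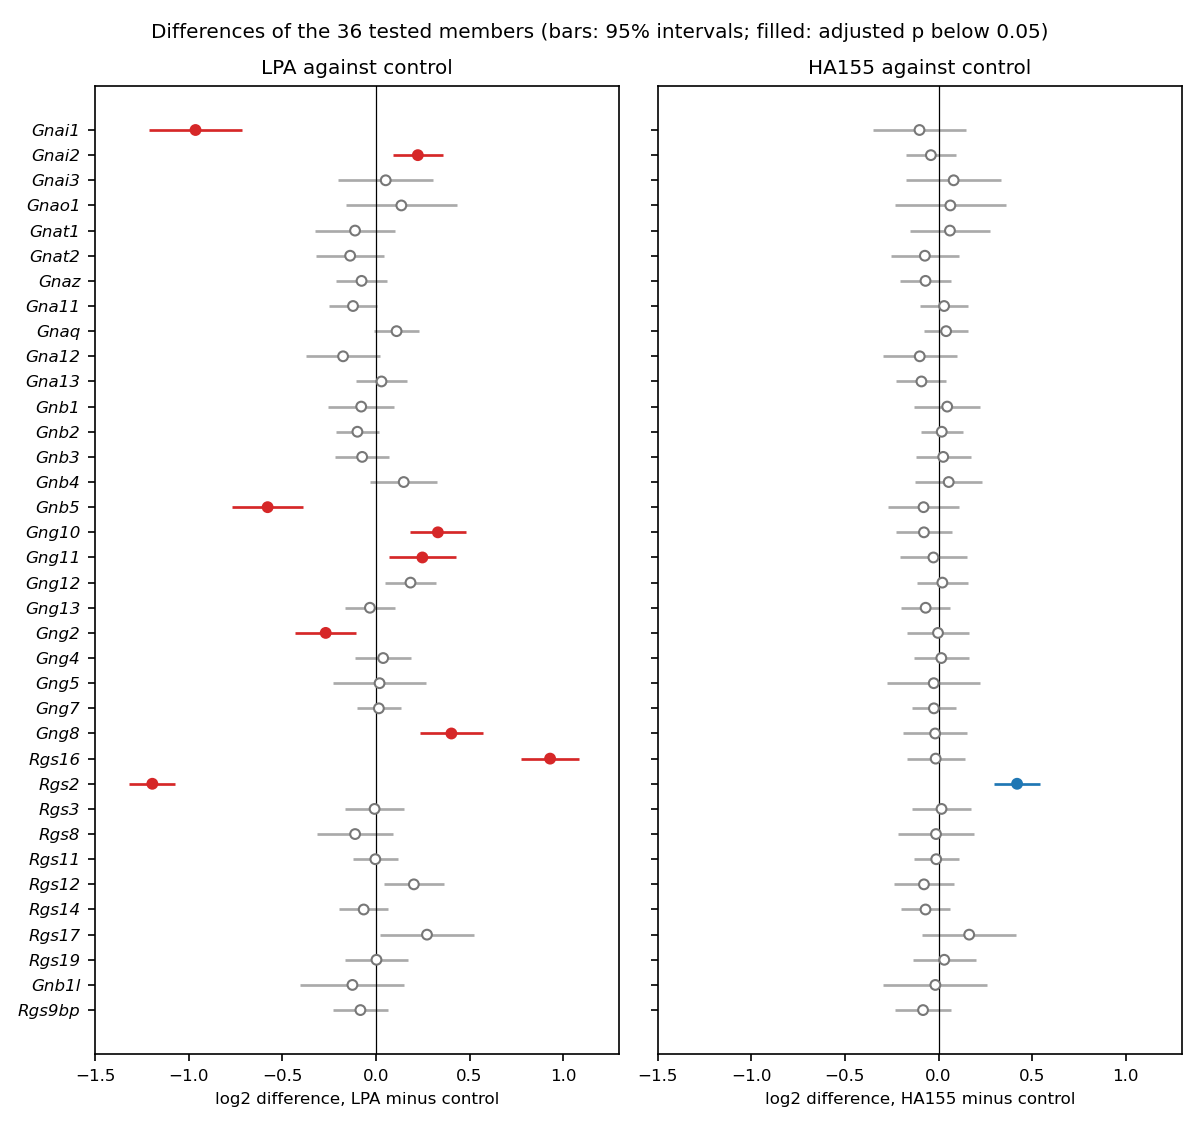
Log2 difference from control of the 36 tested members (rows, by role) for LPA on the left and HA155 on the right; points are estimates, bars are 95% intervals and filled points passed at an adjusted p below 0.05. With LPA 9 points are filled, from -1.19 (Rgs2) to 0.93 (Rgs16), and with HA155 only that of Rgs2 at 0.42.

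HA155 left the tested members close to control apart from Rgs2. The other 35 differences ran from -0.10 (Gnai1) to 0.16 (Rgs17), and the median size of all 36 was 0.04, against 0.06 over all genes tested. Rgs2 was also the only one of the 36 tested members with an unadjusted p below 0.05 (limma) in this comparison. Rgs7, below the filter, had an unadjusted p of 0.00569 in the limma fit without the filter (adjusted p = 0.340). The 8 other members called for LPA against control had 95% intervals for HA155 that included 0. Rgs2 alone passed against control with both compounds, with opposite signs, and the difference between the compounds passed as well.

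Other genes of the pathway were counted in 8 lists. Of their 69 tested genes 17 rose and 12 fell with LPA (42.0%, against 23.0% of all genes). Since the lists were chosen with earlier results of these data known, this share is no test of the pathway. With HA155 1 gene fell (1.4%, against 1.03% of all genes passing in either direction). That gene was Agtr1a, an angiotensin receptor (-0.41, limma adjusted p = 0.0392), which rose with LPA by 0.47. Among LPA and sphingosine-1-phosphate receptors 3 of 9 rose with LPA and 1 fell, with Lpar1, the best known LPA receptor of preadipocytes, at 0.67 and S1pr1, a Gi-coupled receptor, at 0.43. Among 11 other receptors of fat cells and precursors 3 rose and 5 fell, led by the falls of Tshr, the Gs-coupled thyrotropin receptor (-1.41), and Hcar1, the Gi-coupled lactate receptor (-1.13). The part of the fat cell markers in these falls and in those of the effectors was not tested.

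Among the effectors, 3 of 8 adenylyl cyclases rose with LPA and 2 fell, with Adcy5, a Gi-inhibited cyclase, at -0.55 (limma adjusted p = 0.000175) and Adcy2, which beta-gamma pairs can stimulate, at 0.31. Of 4 tested phospholipase C genes 2 rose and 1 fell, with Plcb4 at 0.58 and Plce1 at 0.54. Of 10 cyclic AMP phosphodiesterases 2 rose and 1 fell; Pde3b, the insulin-responsive enzyme of fat cells, measured -1.12 and Pde8a 0.50. With HA155 Pde3b measured 0.28 (limma adjusted p = 0.0610).

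Regulators that act beside RGS proteins were counted as well. Of 7 tested receptor kinases and arrestins 1 rose, the arrestin-like Arrdc4 (0.47), and 2 fell, the kinase Grk5 (-0.36) and Arrb1 (-0.33). The share was 42.9%, against 23.0% of all genes. Of 17 other G protein regulators 3 rose and none fell (17.6%, below the 23.0% of all genes). Among them were Gpsm2 at 0.35 and Gpsm1 at 0.29, which both bind inactive Gi alpha subunits. None of 3 tested genes of G protein-gated channels and the gamma class of PI3K passed (smallest adjusted p = 0.501, limma).

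**Figure D4:**
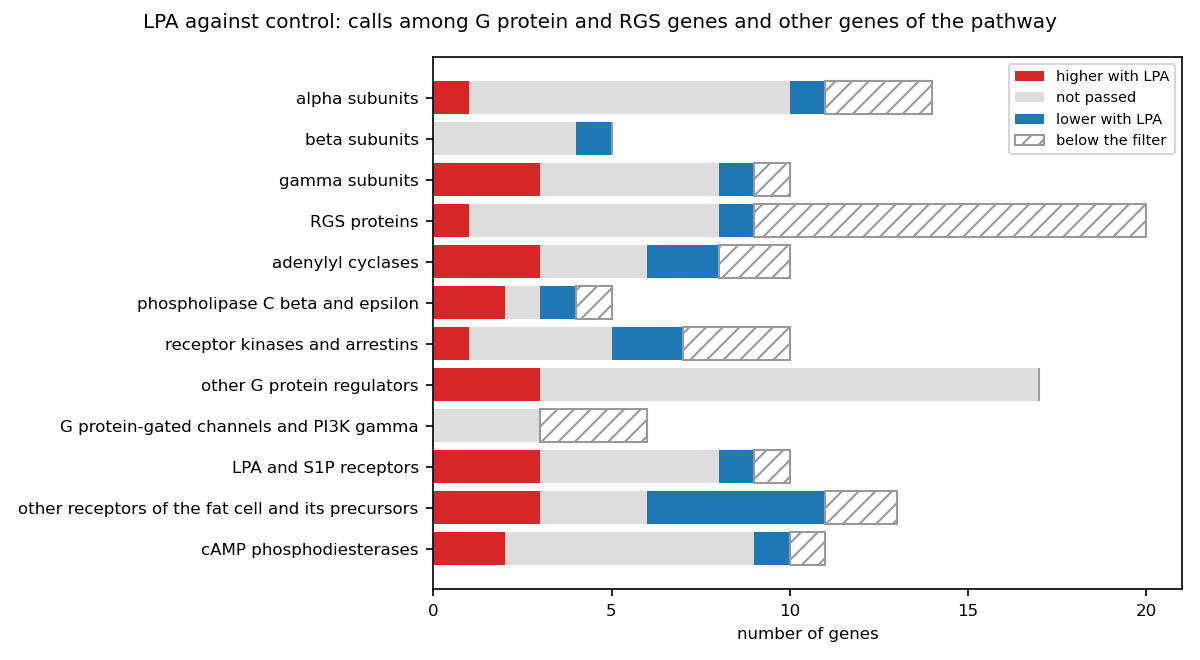
Number of genes (horizontal axis) that were higher, lower or not called with LPA against control, or below the filter, for the alpha, beta, gamma and RGS genes and for 8 lists of other pathway genes. RGS genes have the most below the filter (11 of 20), and the receptors of fat cells and precursors have the most falls (5 of 11 tested).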

How the data were processed

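Total RNA of 9 cultures was labelled with biotin for Affymetrix arrays, per the labels' protocols. The deposited intensity of each probe set and array was made by the authors with RMA, per the submitters' processing notes (version not given in the sources used here), which equalises the arrays' distributions; the linear scale was read from the values. Values were log2-transformed without an offset, and 21706 of 35432 probe sets named a single gene. The limma package (3.58.1, R 4.3.3) tested differences (lmFit, eBayes, 3 groups, no covariate, two-sided, Benjamini-Hochberg over 13335 genes), a procedure tested on simulated data with known changes. Exact permutation of 3 arrays against 3 gives no p below 0.1, so it was not used. The labels name no batch. The p-values rest on the spread between cultures, which limma moderates with that of all genes tested. In 586 tested genes all 3 arrays of a group held identical values, as for Rgs2 in control, and there the spread is understated.

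The members and lists were chosen with earlier results of these data known. All members called in any comparison and all tested alpha subunits are named with values, and of each pathway list the 2 genes of smallest p with LPA; Agtr1a, Rgs7, Rgs17, Gng12 and the remaining members were named after their values were seen. Of the 23 receptors listed for fat cells and precursors, 13 had a probe set with a single symbol. All 52 members matched a RefSeq gene by Entrez identifier. One list of downstream genes is not reported here.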

Additional observations from a re-analysis of the deposited data

How the results depend on the processing

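The settings tried were no intensity filter, a filter at the 60th percentile, log2(intensity + 16), repeated quantile normalization, median scaling, the 2 groups alone, a trended robust variance model, array weights, the mean of a gene's probe sets, and each array left out. No paired analysis was possible because the groups share no subject number. With 1 array left out, 6 to 10 members passed for LPA against control, 1 for HA155 against control and 8 to 10 for LPA against HA155; the other settings gave 7 to 9, 1 and 9 to 11. Rgs2, Rgs16, Gnai1, Gnb5, Gng8 and Gng10 passed for LPA against control in all 18 fits, and Rgs2 for HA155 in all 18. Gng11 lost its call in 15 of 17 fits, Gng2 in 4 of 18 and Gnai2 in 2 of 18. Gng12 passed in some settings, for example with log2(intensity + 16). No called member changed sign. Close to the filter level of 5.59 the signal is near background, which limits Gng11, Gng13, Rgs7, Rgs8, Rgs11, Rgs17, Gnaz, Gnat1 and Gnat2, among others. Over all genes the HA155 calls ran from 39 to 338 across the settings, against 138.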
